A study of Mus musculus with 28 samples.

Results

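A set of 8 genes of systemic iron regulation were followed across 28 mouse arrays: the hepcidin genes Hamp and Hamp2, the sensors and inducers Tfr2, Hfe2 and Bmp6, the plasma carrier transferrin (Trf), the transferrin receptor Tfrc and the iron exporter ferroportin (Slc40a1). They were picked by gene name, and all 8 of 8 were found, on 9 probes among the 41174 probes of the array and among the 21047 genes tested. Hfe2 is now named Hjv, and the files write Tfr2 as Trfr2. Bmp6 has 2 probes, of which the brighter was used.

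Each array carried Cy3-labelled RNA of a C57BL/6 sample beside a commercial mouse reference RNA in Cy5. The 13 groups were liver organoids in expansion medium (EM, 2 arrays) and in differentiation medium (DM, 1 array), duct cells sorted for the surface antigen Mic1-1c3 (2), the hepatocyte fraction of a liver isolation (2), Lgr5-sorted cells taken 6 days after carbon tetrachloride (CCl4, 2), liver 3 days (2) and 13 days (2) after CCl4, adult liver (2) and whole liver (2), the undamaged livers, and pancreas (2), muscle (3) and the white (3) and brown (3) adipose tissue of wild-type mice. CCl4 injures the pericentral hepatocytes, and Lgr5, an R-spondin receptor, is a stem cell marker in other organs. The organoids were grown from single Lgr5-sorted cells. The labels give no sex, age or number of animals, and no reporter allele for the Lgr5 sort, so p-values measure only the spread between these arrays, which may be technical.

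The liver makes the hormone hepcidin from Hamp, and hepcidin binds ferroportin on macrophages, enterocytes and hepatocytes and causes its breakdown, which lowers iron release into plasma. Hepatocytes set the output of Hamp through BMP6, made by liver endothelium, its co-receptor hemojuvelin (Hfe2) and SMAD proteins, through transferrin receptor 2 (Tfr2) with Hfe, which read iron-loaded transferrin, and through interleukin 6 and STAT3 in inflammation. Mice carry a second hepcidin gene, Hamp2, expressed in liver and pancreas, whose product is not known to regulate iron as hepcidin does.

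The 2 hepcidin genes lie close together on chromosome 7, and whether their signals can be told apart rests on the probes, which are shown here with the bases that differ in capitals.
Hamp probe, mm9 chr7:31727490-31727549, minus strand: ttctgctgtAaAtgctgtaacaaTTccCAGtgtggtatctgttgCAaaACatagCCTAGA
Hamp2 probe, mm9 chr7:31707520-31707579, minus strand: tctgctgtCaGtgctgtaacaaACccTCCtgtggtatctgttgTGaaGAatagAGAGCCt
Over 59 aligned bases, with an offset of 1 base and no gap, 42 were identical and 17 differed, an identity of 71.2%. The sources used here do not give how far each probe binds the transcript of the other gene.

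The upstream sequences are alike to a greater degree. RefSeq promoters (GRCm38.p6) matched 5 of the 8 genes. For the hepcidin genes the 250 bases before the start are shown, because a BMP-responsive and a STAT element of the human and mouse hepcidin promoter are known. Capitals mark the BMP-element window (GGCGCC in Hamp) and the STAT-type motif.
Hamp, GRCm38.p6 chr7:30944030-30944279, minus strand: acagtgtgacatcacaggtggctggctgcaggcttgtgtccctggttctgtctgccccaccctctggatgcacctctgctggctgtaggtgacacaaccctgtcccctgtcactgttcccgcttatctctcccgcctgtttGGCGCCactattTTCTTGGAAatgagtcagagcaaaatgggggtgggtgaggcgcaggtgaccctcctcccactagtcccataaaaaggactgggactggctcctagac
Hamp2, GRCm38.p6 chr7:30924182-30924431, minus strand: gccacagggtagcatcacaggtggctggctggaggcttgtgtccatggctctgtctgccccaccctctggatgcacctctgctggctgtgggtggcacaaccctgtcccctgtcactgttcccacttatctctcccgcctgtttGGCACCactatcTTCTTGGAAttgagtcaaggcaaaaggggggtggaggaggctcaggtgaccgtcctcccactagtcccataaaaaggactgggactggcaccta
Over 247 aligned bases 20 differed, an identity of 91.9%. Searched on both strands, GGCGCC was found in Hamp 109 bases before the start. Hamp2 has G4A in that window, counted from 1 at the motif's 5′ end, so the letters were not found there. TTCNNNGAA was found in both, 97 bases before the start in Hamp and 94 in Hamp2. Over all 32851 mouse promoters of 300 bases, 11.9% held GGCGCC and 8.3% held TTCNNNGAA. Of Tfrc, Tfr2 and Bmp6, 1 Tfrc promoter held GGCGCC, 89 bases before the start, and none held TTCNNNGAA. A match is a description of letters and does not show binding.

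Levels are given as log2 of sample over reference after correction of background and dye. A gene was called higher or lower at a Benjamini-Hochberg adjusted p under 0.05, from limma over all genes, with a log2 change of 1 or more in size. Changes are log2 ± standard error. Where no array of a group had the gene well above background, a bound ("at least N-fold") was taken from the normalised Cy3 signals, with the dimmest detected probe, or the gene's own signal if higher, standing for the group without it. The bounds are open to dye bias, since no dyes were swapped, and are given only where Cy3 alone, scaled to the 75th percentile of each array, differed by as large a fold. The share of probes well above background ran from 17.7 to 69.1% of an array, and was 21.5 and 18.5% for the Lgr5-sorted cells and 17.7 and 44.0% for pancreas.

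Marker genes were read beside the labels. All 8 hepatocyte markers were above background on every liver and hepatocyte array, against 4 and 1 on the EM arrays and 3 on the DM array. Bile duct markers were detected at 8 and 8 of 8 in EM organoids, 7 in the DM organoid, and 8 and 7 in sorted duct cells. The sorted duct arrays also showed 6 and 3 of 8 hepatocyte markers and 10 and 9 of 10 macrophage markers. Endothelial markers were above background there for 10 and 10 of 10, and stellate markers for 9 and 9 of 9. The Lgr5-sorted arrays showed 10 and 8 of 10 macrophage markers, 5 and 5 of 8 hepatocyte markers and 2 and 1 of 8 duct markers. They also showed 8 and 9 of 10 endothelial markers and 5 and 4 of 9 stellate markers. Muscle, both adipose tissues and pancreas showed all their own markers on all arrays, except white adipose replicate 3 with 3 of 4 adipocyte markers. Adipocyte markers averaged 5.38, 4.49 and 4.64 (log2 ratio) on the muscle arrays, against 5.08 to 5.95 on those of white adipose tissue, and 3.94 on day 13 replicate 1. Skeletal muscle markers averaged 5.24, 0.82 and 5.25 (log2 ratio) on the 3 white adipose arrays and 4.67, 4.56 and 3.58 on the brown ones. All 4 were also detected on both day 13 arrays, averaging 2.87 on replicate 1 and -0.32 on replicate 2. Adult liver shared no slide or scan day with muscle, adipose tissue or pancreas, so array batch and tissue cannot be told apart there. In bulk tissue, fewer cells of a type and less RNA per cell cannot be told apart either.

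Hamp was a gene of the livers and the hepatocyte fraction. Its log2 ratios were 3.27 and 4.91 in hepatocytes, 3.20 and 4.10 in whole liver, 3.64 and 3.09 in adult liver, 3.07 and 3.34 at day 3 and 3.17 and 3.24 at day 13 after CCl4. Neighbours among these 5 groups, ordered by mean, overlapped and did not differ beyond their spread. Hepatocytes (mean 4.09) did not overlap day 13 (mean 3.20), and this pair was not tested. The next group, sorted duct cells at 1.03 and 0.52, lay 2.43 below day 13, with no overlap and an interval of the difference that excluded 0. Hamp was not well above background on 15 arrays, those of the EM and DM organoids, muscle, both adipose tissues and pancreas, and Lgr5-sorted replicate 2.

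Hamp2 had another order. It was highest by ratio in pancreas, at 6.16 and 5.57, followed by hepatocytes at 3.71 and 4.74, whole liver at 3.23 and 4.58, adult liver at 4.06 and 3.60, and day 13 at 3.64 and 3.52. Pancreas lay 1.64 above hepatocytes with no overlap. At day 3 Hamp2 was 2.66 and 2.29, below every other liver array. Brown adipose tissue gave 0.72, 0.99 and 0.65 on 3 of 3 arrays above background, while muscle gave none. Hamp was detected on no pancreas array, so in pancreas the Hamp2 probe read a signal that the Hamp probe did not.

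Tfr2, the hepatocyte sensor of iron-loaded transferrin, was distributed like Hamp. It stood at 5.48 and 7.22 in hepatocytes, 5.63 and 5.94 in whole liver, 5.51 and 5.97 in adult liver, 5.55 and 5.38 at day 3 and 5.52 and 5.79 at day 13. A gap of 4.15 separated day 3 from the next group, brown adipose tissue at 1.78, 1.15 and 1.01. EM organoids followed with 0.84 and 1.20, above background on both arrays. The 13 group means of Tfr2 and Hamp correlated at r = 0.966, a description over groups that share arrays, hepatocytes and depth.

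Hfe2, the BMP co-receptor hemojuvelin, known from liver and skeletal muscle, was high in muscle (3.84, 3.91 and 3.97) and in adult liver (3.84 and 3.88), day 3 (3.86 and 3.68) and day 13 (3.82 and 3.78). Hepatocytes at 2.93 and 1.04 and whole liver at 1.88 and 1.47 were lower, and the drop of 1.78 from day 3 to hepatocytes was the one step between neighbours whose interval excluded 0. Hepatocytes and whole liver shared slides that held neither adult liver nor CCl4-damaged liver, so slide and sample cannot be told apart in this drop. Between hepatocytes and whole liver the Hfe2 change was 0.31 ± 0.61. White adipose tissue gave 1.54, 0.02 and 2.02, and brown adipose tissue 2.63, 2.57 and 0.58. In both adipose tissues the array with the lowest Hfe2 was also the one with the lowest muscle markers, and the part of these markers in the adipose values was not tested. No organoid, duct, Lgr5-sorted or pancreas array had Hfe2 above background.

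Bmp6, the ligand that induces hepcidin, was low throughout. Its ratios were 1.85 on the DM array, 1.45, 1.82 and 1.74 in muscle, 1.92 and 1.14 in sorted duct cells, 1.65 and 1.37 in adult liver and 1.51, 1.51 and 1.12 in brown adipose tissue. White adipose tissue ran from 0.25 to 1.5, and the pancreas arrays, neither above background, read 1.88 and -0.01. By Cy3 alone the order differed, with duct cells first, muscle 9th and brown adipose tissue 11th of the 13 groups. No step between ordered groups excluded 0. It was not above background on either hepatocyte, Lgr5-sorted or pancreas array. Of the undamaged livers, whole liver read 0.39 and 0.19, below adult liver by ratio, while by Cy3 alone the means were -0.96 in adult liver and -0.77 in whole liver. That difference was not tested. The dimmer Bmp6 probe was above background on 4 arrays, with group means from -0.155 in pancreas to 0.43 in sorted duct cells. It read -0.07 in muscle and 0.31 in adult liver, so it did not show the ratios of the brighter probe.

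Trf, the plasma iron carrier secreted by hepatocytes, was detected in every group. Its values were 6.90 and 9.0 in hepatocytes, 6.60 and 8.07 in whole liver, 6.34 and 5.71 in adult liver, 5.57 and 6.44 in EM organoids and 6.05 in the DM organoid. White adipose tissue, at 5.55, 5.49 and 5.92, lay by ratio among the damaged livers, at 5.53 and 5.57 on day 3 and 5.83 and 5.61 on day 13. By Cy3 alone it did not, with a mean of 5.97 in white adipose tissue, 8.91 at day 3 and 8.93 at day 13. Brown adipose tissue gave 4.55, 4.44 and 4.36 and muscle 4.88, 3.91 and 4.0. The lowest groups were sorted duct cells at 2.10 and 1.40 and pancreas at 1.13 and 1.62, and the Lgr5-sorted arrays were far apart at 4.67 and 1.47.

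Tfrc, which takes up iron-loaded transferrin and is held down by iron through its message, stood out in brown adipose tissue at 2.05, 2.03 and 2.39. The next group, hepatocytes at -0.13 and -0.07, was 2.26 lower. All other groups lay between 0.40, on a whole liver array, and -1.61, on an adult liver array. Its probe is printed on 10 spots, whose ratios within an array had an SD of 0.0283 to 0.407 with a median of 0.0896. The SD between the 2 adult liver arrays was 0.75.

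Slc40a1, the cellular iron exporter and the target of hepcidin, was highest by ratio in Lgr5-sorted cells at 8.35 and 6.59. That was 2.72 above whole liver at 4.08 and 5.42. By Cy3 alone these 2 groups overlapped, from 4.06 to 6.21 in Lgr5-sorted cells and 4.19 to 5.19 in whole liver. Day 13 (4.54 and 4.32), adult liver (3.80 and 3.93), hepatocytes (3.80 and 3.93) and day 3 (3.70 and 3.73) followed by ratio. The organoids were lower, at 2.98 in DM and 2.70 and 2.06 in EM. Adipose tissue, muscle and duct cells ranged from 0.99 to 2.22, and pancreas, at -0.11 and -0.05, was the lowest.

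**Figure D1:**
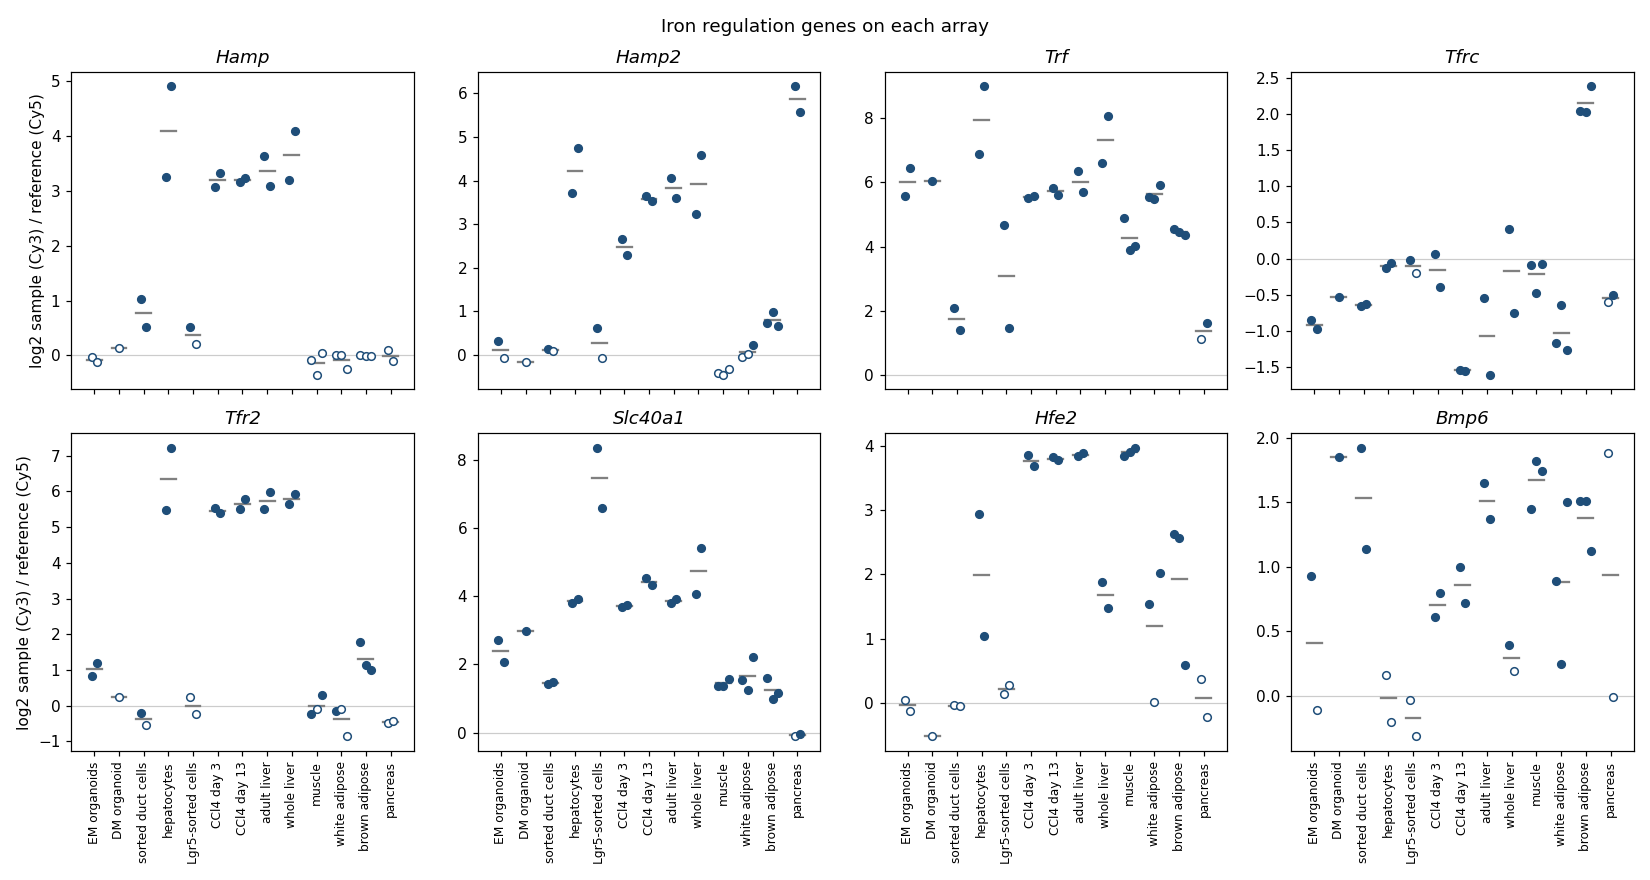
Log2 ratio of sample over reference (vertical axis) of the 8 genes on each of the 28 arrays, by group (horizontal axis). Filled points are well above background in Cy3, open points are not, and grey lines are group means. Hamp and Tfr2 are high in the 5 liver and hepatocyte groups, Hamp2 also in pancreas, Tfrc in brown adipose tissue and Slc40a1 in Lgr5-sorted cells.

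Adult liver was set against the non-related tissues, a survey named in the study's design. In adult liver against muscle, 5 of 8 members were called higher and 0 lower, where 15.9% of all genes were higher and 19.8% lower. The members' median change was 2.09, against 0.00 over all genes tested. Hamp was higher by 3.49 ± 0.33 (adjusted p = 2.19e-08), at least 323-fold by Cy3, and Hamp2 by 4.23 ± 0.33 (adjusted p = 1.25e-09), at least 36.2-fold. Tfr2 rose by 5.74 ± 0.36 (adjusted p = 6.93e-11) and Slc40a1 by 2.42 ± 0.40 (adjusted p = 3.32e-05). Trf was higher by 1.76 ± 0.67 (adjusted p = 0.0301), a call that was lost without adult liver replicate 1 (1.44) or 2 (2.08), or muscle replicate 2 (1.58) or 3 (1.63), with scan day as a random block (adjusted p = 0.0641) and with Agilent's log ratio (1.46, adjusted p = 0.268). By Cy3 alone Trf was 128-fold higher in liver than in muscle, with an adjusted p of 1.52e-09. Hfe2 differed by -0.04 ± 0.56 (95% interval -1.21 to 1.12). Tfrc, at -0.86 ± 0.30, was short of the fold minimum, and was called lower without adult liver replicate 1 (-1.39).

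Of the pathway genes, the BMP and SMAD list had 5 of 18 members higher and 7 lower in liver than in muscle. Tmprss6, the hepatocyte protease that cuts hemojuvelin, was higher by 5.90 ± 0.31 and Hfe, the partner of Tfr2, by 2.54 ± 0.36. Neo1, a hemojuvelin-binding receptor, was lower by -3.05 ± 0.21, the BMP receptor Bmpr1a by -2.29 ± 0.25 and the SMAD target Id1 by -1.83 ± 0.54. All 6 called members of the list of interleukin 6 input and acute phase were higher. In iron storage and haem handling 7 of 12 were higher and 2 lower, led by the haem carrier Hpx at 7.35 ± 0.48 and the ferroxidase Cp at 5.18 ± 0.41, while the membrane ferroxidase Heph was lower at -2.81 ± 0.69. Mitochondrial iron and haem synthesis had 7 of 12 higher and 0 lower.

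Against white adipose tissue, 5 of 8 members were higher and 0 lower (13.5 and 14.4% of all genes). Hamp was higher by 3.44 ± 0.33 (adjusted p = 4.32e-08), at least 430-fold by Cy3. Hamp2 was higher by 3.77 ± 0.33, Tfr2 by 6.11 ± 0.36, Slc40a1 by 2.19 ± 0.40 (adjusted p = 0.000139) and Hfe2 by 2.67 ± 0.56 (adjusted p = 0.000572). The Trf difference was 0.37 ± 0.67 with an adjusted p of 0.694, though by Cy3 alone it was 2.61 with an adjusted p of 0.000702. With Agilent's own log ratio Hfe2 was 1.76 with an adjusted p of 0.11.

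Against brown adipose tissue, 5 of 8 were higher and 1 lower (13.3 and 15.8% of all genes). Tfrc, at -0.55 and -1.61 in adult liver against 2.05, 2.03 and 2.39 in brown adipose tissue, was lower in liver by -3.23 ± 0.30 (adjusted p = 2.33e-08). Its Cy3 signals in brown adipose tissue, 5283.1, 6023.2 and 5604.2 above background, were the highest of the 28 arrays. Hamp was higher in liver by 3.37 ± 0.33, at least 425-fold by Cy3, Hamp2 by 3.04 ± 0.33, Tfr2 by 4.43 ± 0.36, Slc40a1 by 2.61 ± 0.40 and Hfe2 by 1.93 ± 0.56 (adjusted p = 0.00754). Hamp2 and Hfe2 missed the threshold with Agilent's log ratio (adjusted p = 0.0859 and 0.243). Trf gave 1.57 ± 0.67 with an adjusted p of 0.0583, and by Cy3 alone 5.76 with an adjusted p of 3.43e-08.

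Against pancreas, 5 of 8 were higher and 1 lower (12.7 and 16.3% of all genes). The 2 hepcidin genes moved in opposite directions. Hamp was higher in liver by 3.37 ± 0.36 (adjusted p = 2.46e-07), while Hamp2 was lower by -2.04 ± 0.36 (adjusted p = 0.000107; 0.127 with Agilent's log ratio). Hamp2 stood at 4.06 and 3.60 in liver against 6.16 and 5.57 in pancreas. Trf was higher by 4.65 ± 0.73, Tfr2 by 6.21 ± 0.40, Slc40a1 by 3.94 ± 0.44 and Hfe2 by 3.78 ± 0.61. Without adult liver replicate 1 Tfrc was called lower (-1.06), and without pancreas replicate 1 Bmp6 was called higher (1.52). The acinar markers averaged 1.82 and 1.11 on the adult liver arrays and 9.02 and 7.89 in pancreas. On brown adipose replicate 1 they averaged 3.15, against 0.37 and 0.58 on replicates 2 and 3, while Hamp2 was 0.72, 0.99 and 0.65 there.

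**Figure D2:**
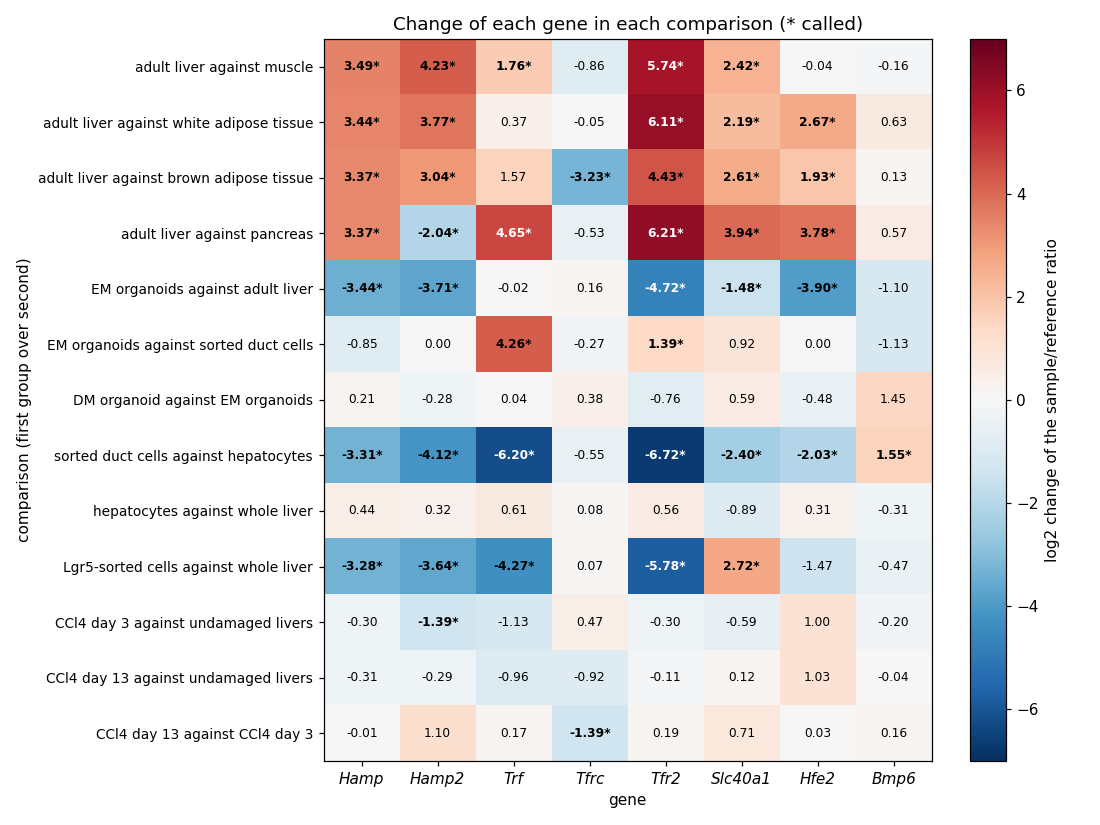
Log2 change of the ratio for the 8 genes (columns) in the 13 comparisons (rows, group named before "against" over the group after it). Colour and number give the change and an asterisk marks a call. Hamp, Hamp2 and Tfr2 are lower in EM organoids than adult liver, in duct cells than hepatocytes and in Lgr5-sorted cells than whole liver. None of the 8 genes is called between hepatocytes and whole liver.

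The cultures were then set against liver. In EM organoids against adult liver, 0 of 8 members were higher and 5 lower, where 14.4% of all genes were higher and 17.6% lower. The members' median change was -2.46, against -0.09 over all genes. Hamp gave -0.03 and -0.13 in EM organoids against 3.64 and 3.09 in adult liver, a fall of -3.44 ± 0.36 (adjusted p = 1.46e-07), at least 254-fold lower by Cy3. Its raw Cy3 signals show the size of the gap, at 67 and 54 units above background in EM organoids against 57375.5 and 32417 in adult liver. Hamp2 was lower by -3.71 ± 0.36 (adjusted p = 4.31e-08), Tfr2 by -4.72 ± 0.40 (adjusted p = 6.47e-09) and Hfe2 by -3.90 ± 0.61 (adjusted p = 2.48e-05), at least 12.8-fold. Slc40a1 was lower by -1.48 ± 0.44 (adjusted p = 0.00861), a call lost without adult liver replicate 2 (-1.42) or EM replicate 2 (-1.16) and by Cy3 alone (-1.17, adjusted p = 0.0598).

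Trf, also secreted by hepatocytes, was not called. It stood at 5.57 and 6.44 in EM organoids against 6.34 and 5.71 in adult liver, overlapping, with a difference of -0.02 ± 0.73 (95% interval -1.54 to 1.51). In raw Cy3 the values were 159340.5 and 46323.5 against 146661 and 169341. By Cy3 alone the difference was -1.37 with an adjusted p of 0.0851. Bmp6 gave -1.1 ± 0.46 with an adjusted p of 0.0562. It passed by Cy3 alone (-1.23, adjusted p = 0.0406), without background correction, with scan day as a random block and without EM replicate 1 (-1.62). For EM replicate 1 and adult liver replicate 1, scanned on the same day, the differences were -3.67 for Hamp, -3.75 for Hamp2, -4.68 for Tfr2, -3.80 for Hfe2, -1.1 for Slc40a1, -0.72 for Bmp6 and -0.77 for Trf.

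The surrounding pathway split in EM organoids. In the BMP and SMAD list 5 of 18 were higher and 5 lower than in adult liver. Tmprss6 fell by 4.90 on the log2 scale, Hfe by 4.70 and the SMAD-linked factor Atoh8 by 2.67, while Id1 was higher by 2.64 ± 0.59 and Bmpr1a by 1.56 ± 0.27. In iron uptake, 4 of 12 were higher, among them the transporter Slc11a2 (2.07 ± 0.21) and the IRP2-degrading Fbxl5 (1.80 ± 0.25), and 3 lower, led by the zinc and iron importer Slc39a14 (-3.26 ± 0.30). Storage and haem handling had 1 higher and 5 lower, with Hpx at -5.36 ± 0.52, and haem synthesis 0 higher and 10 of 12 lower. Acute phase genes were 2 higher (Lcn2 4.89 ± 0.35, Inhbb 3.77 ± 0.30) and 6 lower. In the same contrast all 8 hepatocyte, 10 of 10 macrophage, 9 of 10 endothelial and 7 of 9 stellate markers were lower and all 8 duct markers higher, and their part in these changes was not tested.

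Against sorted duct cells, EM organoids had 2 of 8 members higher and 0 lower (12.4 and 14.1% of all genes). These 2 groups shared no slide or scan day, so culture and array batch cannot be told apart. Trf was 5.57 and 6.44 in EM organoids against 2.10 and 1.40 in duct cells, higher by 4.26 ± 0.73 (adjusted p = 9.45e-05). Its Cy3 signals of 159340.5 and 46323.5 in EM organoids lay far above the 1140.5 and 77 of duct cells. With Agilent's log ratio the Trf change was 2.25 with an adjusted p of 0.142, and by Cy3 alone 6.25 with an adjusted p of 9.64e-08. Tfr2, at 0.84 and 1.20 against -0.19 and -0.55, was higher by 1.39 ± 0.40 (adjusted p = 0.00851), a call lost without EM replicate 2 (1.21) or duct replicate 2 (1.21) and by Cy3 alone (0.50, adjusted p = 0.389).

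Hamp in the same contrast gave -0.85 ± 0.36 (adjusted p = 0.0689). By Cy3 alone it was -3.07 (adjusted p = 0.000406), and Bmp6, at -1.13 ± 0.46 by ratio (adjusted p = 0.0587), was -3.13 (adjusted p = 1.64e-05). Bmp6 also passed without duct replicate 2 (-1.52) or EM replicate 1 (-1.65), without background correction (adjusted p = 0.00469) and with scan day as a random block (adjusted p = 0.0481). With Agilent's log ratio both passed, Hamp at -3.05 (adjusted p = 0.00207) and Bmp6 at -2.83 (adjusted p = 0.00537). Among companion genes, Hp, the haemoglobin scavenger, was higher by 4.80 ± 0.49, while Il6 was lower by -9.77 ± 0.57 and Hmox1, the haem-degrading enzyme, by -4.48 ± 0.44. The BMP and SMAD list had 1 higher and 5 lower, and the interleukin 6 list 1 and 5. All 5 isolation stress markers, 10 of 10 endothelial and 8 of 9 stellate markers were lower in the organoids, and their part in these values was not tested.

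In the DM organoid against EM organoids, 0 of 8 members were called in either direction, where 6.24% of all genes were higher and 4.02% lower. With 1 DM array, assumed to vary like the other groups, the intervals were wide: for Hamp the change was 0.21 ± 0.44 (95% interval -0.72 to 1.13) and for Trf 0.04 ± 0.89 (95% interval -1.83 to 1.91). At unadjusted p only Bmp6 had an interval that excluded 0, with 1.85 in DM against 0.93 and -0.11 in EM, 1.45 ± 0.56 (adjusted p = 0.104, and 0.0385 without background correction). The dimmer Bmp6 probe read 0.10 in DM against a mean of -0.06 in EM, and was above background on none of these arrays. Hamp, Hamp2, Tfr2 and Hfe2 were not above background on the DM array.

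Companion genes were called between the media. In the BMP and SMAD list 4 of 18 were higher and 0 lower in DM. Tmprss6 stood at 3.79 in DM against -0.11 and 0.28 in EM, higher by 3.70 ± 0.41 (adjusted p = 2.58e-06), and was 4.81 and 5.17 in adult liver. Atoh8 was higher by 3.20 ± 0.33 and Id1 by 2.63 ± 0.72. Bmp2, the other endothelial inducer of hepcidin, was higher by 2.03 ± 0.27, with 2.39 in DM against 0.31 and 0.41 in EM, where it was above background on neither array. Heph was higher by 3.30 ± 0.92 and Saa2 by 3.29 ± 0.45, and Hp was lower by -4.08 ± 0.60, Cp by -3.13 ± 0.56 and Inhbb by -2.75 ± 0.36. Of 8 hepatocyte markers 2 were higher. The Y-linked gene Ddx3y was above background in DM and on neither EM array, and the part of donor sex was not tested.

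Fresh liver cells were compared by fraction. In sorted duct cells against hepatocytes, 1 of 8 members was higher and 6 lower (11.9 and 11.5% of all genes). Tfr2 was -0.19 and -0.55 in duct cells against 5.48 and 7.22 in hepatocytes, lower by -6.72 ± 0.40 (adjusted p = 6.51e-11). Trf fell by 6.20 on the log2 scale (SE 0.73, adjusted p = 9.37e-07), Hamp2 by 4.12 (SE 0.36, adjusted p = 1.42e-08) and Hamp by 3.31 (SE 0.36, adjusted p = 3.59e-07). Slc40a1 was lower by -2.40 ± 0.44 (adjusted p = 0.000182) and Hfe2 by -2.03 ± 0.61 (adjusted p = 0.0139). Bmp6 moved the other way, at 1.92 and 1.14 in duct cells against 0.16 and -0.20 in hepatocytes, a rise of 1.55 ± 0.46 (adjusted p = 0.0122).

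Both fractions lay on the same pair of slides, and the 7 called members kept their sign on each. Bmp6 was higher by 1.76 and 1.34 and Hamp lower by -2.23 and -4.40. The Hfe2 call was lost without duct replicate 1 (-2.04) or 2 (-2.01) or hepatocyte replicate 1 (-1.08), that of Bmp6 without duct replicate 1 (1.16) or hepatocyte replicate 2 (1.37), that of Hamp with Agilent's log ratio (-1.41, adjusted p = 0.12), and that of Slc40a1 with slide as a fixed block (adjusted p = 0.053). The mean of the 2 Bmp6 probes gave 0.87, below the fold minimum.

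The BMP and SMAD list had 7 of 18 higher and 3 lower in duct cells, with Id1 at 2.63 ± 0.59, Smad4 at 1.63 ± 0.19 and the inhibitor Smad7 at 1.63 ± 0.40, and with Tmprss6 at -5.34 ± 0.33 and Hfe at -1.82 ± 0.40. Il6 was higher by 7.91 ± 0.57 and its target Socs3 by 4.31 ± 0.35, while the acute phase genes Orm1 (-6.41 ± 0.58) and Saa2 (-4.75 ± 0.37) were lower. Endothelial markers were higher for 9 of 10, stellate markers for 6 of 9 and isolation stress markers for 5 of 5 in the duct sort, and their part in the Bmp6, Id1 and Il6 values was not tested.

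Hepatocytes against whole liver gave 0 of 8 members in either direction (0.423 and 0.375% of all genes). The largest difference was Slc40a1 at -0.89 ± 0.44 (95% interval -1.80 to 0.03, adjusted p = 0.527), with 3.80 and 3.93 in hepatocytes against 4.08 and 5.42 in whole liver. For Hamp it was 0.44 ± 0.36 (95% interval -0.32 to 1.20). Alas1, the hepatic enzyme that starts haem synthesis, was the one companion gene called, lower by -1.91 ± 0.26. Macrophage markers were lower in hepatocytes for 2 of 10 and stellate markers for 2 of 9.

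In Lgr5-sorted cells against whole liver, 1 of 8 members was higher and 4 lower (11.8 and 9.56% of all genes). The sorted cells were taken after CCl4 and whole liver was undamaged, so cell sort and damage cannot be told apart in this comparison. Tfr2 was lower by -5.78 ± 0.40 (adjusted p = 7.11e-10), Hamp2 by -3.64 ± 0.36 (adjusted p = 1.03e-07) and Hamp by -3.28 ± 0.36 (adjusted p = 4.84e-07). Trf was lower by -4.27 ± 0.73 (adjusted p = 0.000109), but by -1.94 on one shared slide and -6.60 on the other, and its adjusted p was 0.0637 with slide as a fixed block. With Agilent's log ratio Hamp was -1.41 (adjusted p = 0.13) and Trf -1.90 (adjusted p = 0.227), while Hfe2 (-4.64) and Bmp6 (-2.83) were then called lower.

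Slc40a1 was the member that was higher, at 8.35 and 6.59 in Lgr5-sorted cells against 4.08 and 5.42 in whole liver, by 2.72 ± 0.44 (adjusted p = 5.42e-05). The shared slides gave 4.28 and 1.17. Its raw Cy3 signals did not show that separation, with 4907.5 and 1382 in Lgr5-sorted cells against 2790.5 and 3998.5 in whole liver, and the reference read 156 and 729 against 137.5 and 744. By Cy3 alone the change was 0.45 with an adjusted p of 0.427. Macrophages recycle iron through ferroportin. Their markers were higher for 8 of 10, with a list mean of 7.0 and 4.25 in Lgr5-sorted cells against 1.73 and 2.99 in whole liver. Endothelial markers had a list mean of 1.63 and 4.28 in Lgr5-sorted cells against 2.05 and 2.0 in whole liver. The part of either list in the Slc40a1 value was not tested.

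Among storage and haem genes 7 of 12 were higher and 3 lower. Among the 7, the ferritin heavy chain Fth1, was fitted on 1 array a group because an outlier spot was left out in each, so its call rests on the spread of the other groups. Hmox1 was higher by 5.22 ± 0.44 and the macrophage haemoglobin receptor Cd163 by 2.26 ± 0.79. Hpx (-6.11 ± 0.52), Cp (-2.99 ± 0.45) and Hp (-2.87 ± 0.49), all secreted by hepatocytes, were lower. Hepatocyte markers were lower for 7 of 8. Isolation stress markers were higher for 5 of 5, though above background for 5 on replicate 1 and 1 on replicate 2.

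Livers after CCl4 were set against undamaged ones and each other. The CCl4 livers shared no slide or scan day with the undamaged livers, so damage and array batch cannot be told apart between them. At day 3 against the undamaged livers, 0 of 8 were higher and 1 lower (4.96 and 2.01% of all genes). Hamp gave 3.07 and 3.34 at day 3 against 3.64, 3.09, 3.20 and 4.10 in undamaged livers, with a change of -0.30 ± 0.31 (95% interval -0.96 to 0.36). Hamp2 was lower by -1.39 ± 0.31 (adjusted p = 0.00405), with 2.66 and 2.29 at day 3 against 4.06, 3.60, 3.23 and 4.58, and no overlap. In Cy3 alone it was -2.94 (adjusted p = 0.00451). The call was lost without day 3 replicate 2 (-1.21) and with Agilent's log ratio (-1.05, adjusted p = 0.575). Hfe2, at 1.00 ± 0.53, passed against whole liver alone (2.09, adjusted p = 0.0246). Its mean was 3.77 at day 3, against 3.86 in adult liver and 1.68 in whole liver.

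Of the companion genes, 4 were called at day 3, all higher, where 4.96% of all genes were called higher and 2.01% lower. Among all genes called in this comparison 71.1% were higher. Id1 rose by 2.90 ± 0.51 (adjusted p = 0.000519), the iron-scavenging lipocalin Lcn2 by 3.74 ± 0.31, the activin B subunit Inhbb by 1.91 ± 0.26 and Cp by 1.21 ± 0.39 (adjusted p = 0.0425). They were 1 of 18 in the BMP and SMAD list, 2 of 12 in the interleukin 6 list and 1 of 12 in storage and haem handling. Stellate markers were higher for 4 of 9.

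At day 13 against undamaged livers, 0 of 8 members were called (0.931% of all genes higher and 0.423% lower), nor was any companion gene. Tfrc, at -1.54 and -1.56 against -0.55, -1.61, 0.40 and -0.76, gave -0.92 ± 0.28 (adjusted p = 0.0941), and passed without whole liver replicate 2 (-1.21) or adult liver replicate 2 (-1.19) and against whole liver alone (-1.37, adjusted p = 0.0134). The Tfrc means were -1.55 at day 13, -1.08 in adult liver and -0.18 in whole liver. Hfe2 gave 1.03 ± 0.53, and 2.12 against whole liver alone (adjusted p = 0.0375). The Hfe2 mean was 3.80 at day 13, against 3.86 in adult liver and 1.68 in whole liver.

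Day 13 against day 3, all on 1 slide, had 0 of 8 members higher and 1 lower (2.13 and 3.56% of all genes). Tfrc stood at -1.54 and -1.56 at day 13 against 0.07 and -0.39 at day 3, lower by -1.39 ± 0.33 (adjusted p = 0.0087), with Cy3 signals of 107.8 and 109.8 against 510.8 and 371.9. The call was lost without day 13 replicate 1 (-1.40) or 2 (-1.38) or day 3 replicate 1 (-1.16), and with Agilent's log ratio (-1.75, adjusted p = 0.13). Id1 (-2.52 ± 0.59), Lcn2 (-3.58 ± 0.35) and Inhbb (-1.66 ± 0.30) were lower at day 13.

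For Hamp2 the result depended on the scale. By ratio it was 3.64 and 3.52 at day 13 against 2.66 and 2.29 at day 3, a change of 1.1 ± 0.36 (adjusted p = 0.064, but 0.0485 with slide and 0.0411 with scan day as a random block). Its Cy3 signals were 37754.5 and 106651 at day 13 against 499.5 and 458 at day 3, and by Cy3 alone it was higher by 7.32 ± 0.73 (adjusted p = 1.63e-06), 159-fold. On the same 4 arrays the Cy5 signal of the reference at that spot was 7088 and 21301.5 at day 13 against 149.5 and 170 at day 3. Against undamaged livers the day 13 change was -0.29 ± 0.31 by ratio (adjusted p = 0.82) and 4.38 by Cy3 alone (adjusted p = 0.00178), a reversal of sign. Hamp, by contrast, read 31147.5 and 35079 in Cy3 at day 13 against 55576 and 78636 at day 3, and its change by Cy3 alone was -0.60 (adjusted p = 0.887).

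Sex markers moved with the same arrays. Xist averaged 2.35 ± 0.12 at day 13 against -3.63 ± 0.23 at day 3 (SD, n = 2 each), and Ddx3y -1.78 ± 0.11 against 2.15 ± 0.18. In adult liver Xist averaged -4.60, and the 2 whole liver arrays split, with Xist from -1.84 to 2.53. Day 13 and day 3 thus differed in these markers as well as in time, so sex and day cannot be told apart between them. This holds for Hamp2, Tfrc, Id1, Lcn2 and Inhbb alike, and the part of sex was not tested.

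**Figure D3:**
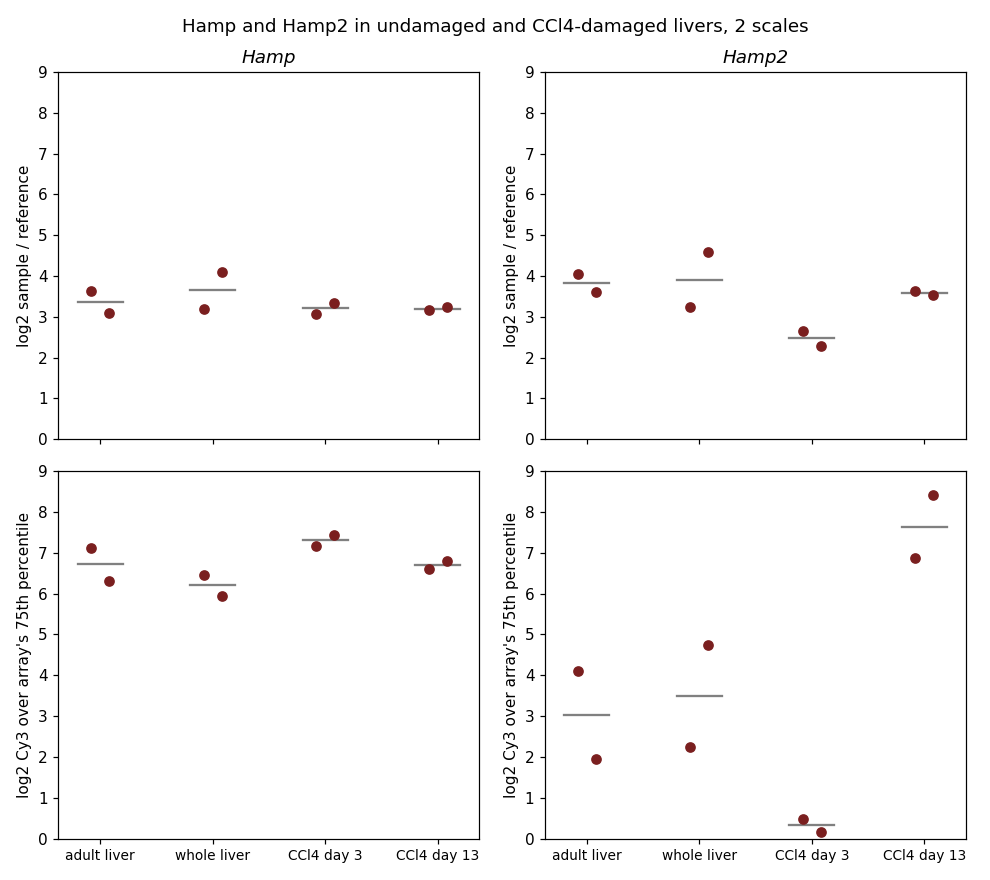
Hamp (left) and Hamp2 (right) in undamaged adult and whole liver and at day 3 and day 13 after CCl4 (horizontal axis), as log2 ratio of sample over reference (top) and as log2 Cy3 over the array's 75th percentile (bottom). Points are arrays and grey lines group means. Hamp2 spans 0.16 to 8.41 in Cy3 alone while its ratio spans 2.29 to 4.58.

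The Hamp2 case was part of a wider pattern in the reference channel. The same reference RNA was used on every array, yet its Cy5 signal at the Hamp spot was 7.5 to 32.5 on the 15 arrays where the sample had no Hamp above background and reached 17693 on a day 3 array. Over the 28 arrays log2 Cy3 and log2 Cy5 correlated at r = 0.957 for Hamp, 0.891 for Hamp2, 0.88 for Trf, 0.814 for Hfe2, 0.725 for Bmp6, 0.564 for Tfr2, 0.556 for Tfrc and -0.03 for Slc40a1. The median over all genes was 0.665, and the points share array brightness. These are descriptions, and the cause was not tested. A Cy5 signal that is higher where Cy3 is higher makes the ratio smaller than the difference in Cy3. For EM organoids against adult liver, Tfr2, above background on all 4 arrays, differed by -4.72 in the ratio and by -7.06 in Cy3 alone.

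**Figure D4:**
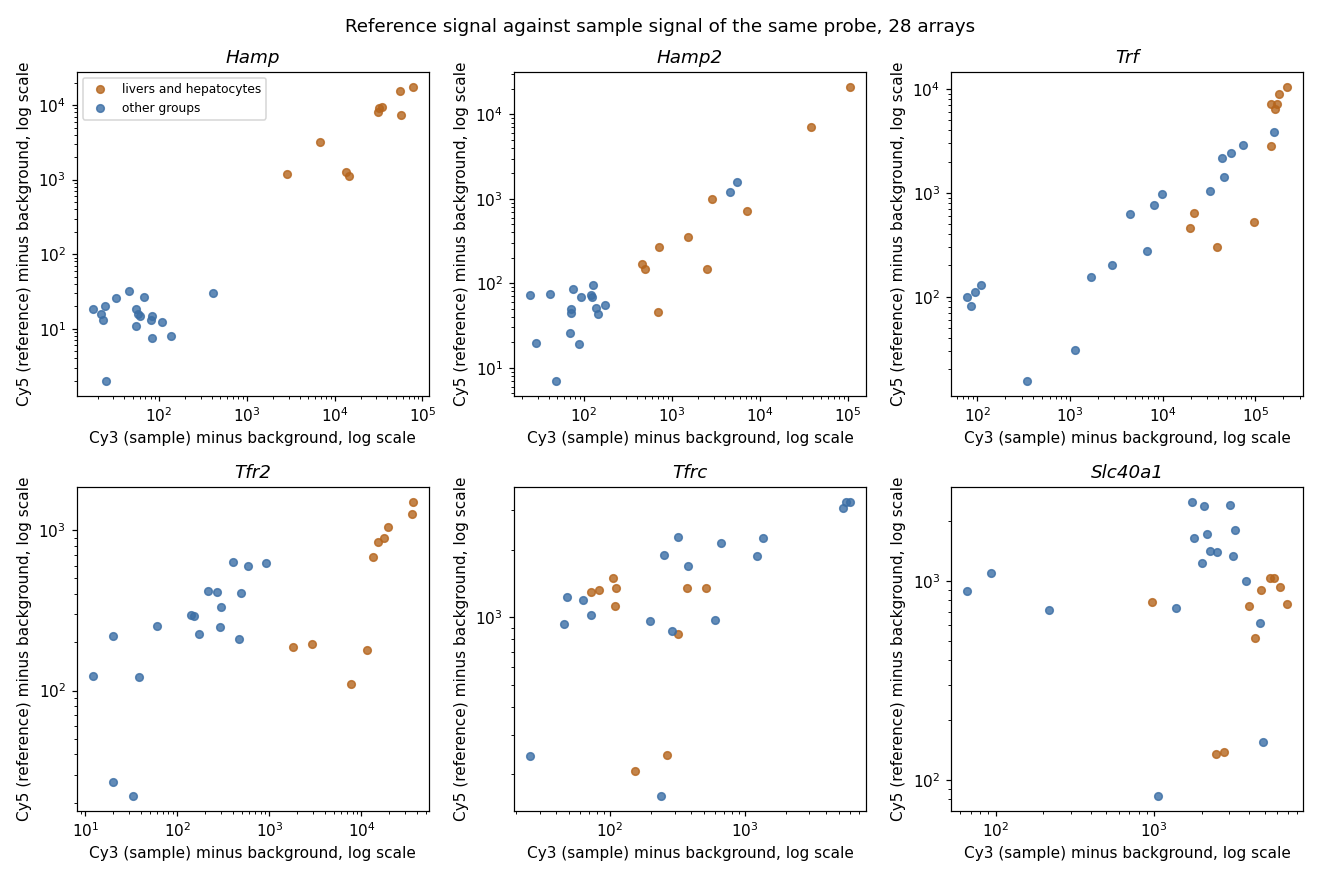
Cy5 of the reference (vertical axis) against Cy3 of the sample (horizontal axis), both minus local background on log scales, at the spot of 6 genes on 28 arrays. Livers and hepatocytes are brown and all other groups blue. For Hamp, Hamp2 and Trf the reference signal is higher where the sample signal is higher, and for Slc40a1 (r = -0.03) it is not.

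The genes whose 13 group means were most like each member were found among 16784 genes. For Hamp these were Serpina1c (r = 0.996), Slc22a30 (0.994) and F10 (0.994), and for Tfr2 Mup5 (0.991), Mup10 (0.99) and Gcgr (0.987). Hamp2 was closest to Gnmt (0.972), Hsd17b13 (0.965) and Celsr2 (0.961). Trf had looser neighbours in Zkscan1 (0.93), Mgst1 (0.882) and Rnf169 (0.87), as had Tfrc in Rnf182 (0.889), Flacc1 (0.889) and Tectb (0.884). Slc40a1 was closest to Ctsc (0.924), Efcab5 (0.912) and Ankrd33 (0.9), Hfe2 to Olfr195 (0.962), Insc (0.926) and Klf12 (0.924), and Bmp6 to Gabra3 (0.916), Cidea (0.842) and Sik1 (0.803). The coefficients describe 13 means each and carry no test.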

How the data were processed

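Per the file headers, the authors deposited scanner files with median intensity and local background of each spot in Cy3 and Cy5, from Agilent Feature Extraction 10.5.1.1 (8.5.1.1 per the submitters' processing notes). The deposited log10 ratio is red over green, and the deposited series matrix equals it. In R 4.3.3 with limma 3.58.1, intensities were corrected with normexp (offset 50), loess was applied within arrays with 1639 control spots at weight 0, and 0.688% outlier spots were dropped. Probes well above background in Cy3 on 2 or more arrays were kept (21047 genes), each gene by the probe of highest mean Cy3. A mean for every group was fitted to 28 arrays, the single DM array being assumed to vary like the rest (lmFit, eBayes, 15 residual and 4.41 prior degrees of freedom), two-sided. The number of arrays limits precision. Names came from the files and RefSeq, coordinates from the files (mm9). Steps were tested on simulated data. Members, lists and tests were chosen with earlier results of these data known. All members, and called companions (up to 3 a direction) or preset key genes, were named. Alternatives were other scalings, filters, probes, tests and blocks, and single arrays left out. Promoters were read with Python 3.11.15.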

Additional observations from a re-analysis of the deposited data

How the results depend on the processing

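Among values of single members under alternatives other than leaving out an array, 1045 kept sign and side of the threshold, 18 fell below it, 23 passed it and 2 reversed. Quantile normalisation between arrays (Aquantile) leaves log ratios as they are, so it tests nothing here and is not counted. The reversed values came from Cy3 alone: Hfe2 in EM organoids against sorted duct cells (-1.81) and Hamp2 at day 13 against undamaged livers (4.38). The cause was not tested. No EM or duct array had Hfe2 above background, and its ratio change between them was 0.0011 ± 0.61. Without 1 array, 431 kept both, 17 fell below and 8 passed.

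Members called, in number, were 0 with Agilent's log ratio and 2 with whole liver alone for day 3 against undamaged livers (1 in the report). For day 13 against day 3 they were 0 with Agilent's log ratio, 2 by Cy3 alone and 2 with slide or scan day as a random block, Hamp2 being added in each of these (correlations 0.11 and 0.199). They were 4 for EM organoids against duct cells by Cy3 alone, 1 by Cy3 alone and 2 with whole liver alone for day 13 against undamaged livers, and 1 for DM against EM organoids without background correction. Without single arrays they ran from 0 to 1 for day 13 against day 3, day 3 against undamaged and day 13 against undamaged livers, and from 1 to 3 for EM organoids against duct cells.

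All genes called moved with Agilent's log ratio to 1162 (DM against EM, 2160 in the report), 7676 (duct cells against hepatocytes, 4932) and 410 (hepatocytes against whole liver, 168). Cy3 alone gave 11700 for adult liver against pancreas (6107), 13441 for EM organoids against duct cells (5585), 32 for hepatocytes against whole liver and 102 for day 13 against undamaged livers (285). With no minimum fold there were 11981 against muscle (7516), 9386 against white (5870) and 10052 against brown adipose tissue (6132), 3236 at day 3 (1467) and 521 at day 13 against undamaged livers, and 1845 for day 13 against day 3 (1198). Scan day as a random block gave 262 for hepatocytes against whole liver and 173 for day 13 against undamaged livers, slide as a fixed block 0 for the hepatocyte comparison, and whole liver alone 993 at day 13. Without single arrays the counts ran from 84 to 331 for day 13 against undamaged livers, 792 to 913 for day 13 against day 3 and 77 to 490 for hepatocytes against whole liver.

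Replicate numbers are shared between groups, but the labels do not say that they mark a shared animal or day. Replicate 1 arrays deviated from their group means together at r = 0.435 for duct cells against hepatocytes and 0.391 for hepatocytes against whole liver. The value was 0.299 for EM organoids against adult liver and 0.158 or less elsewhere. Where a group is a pair of arrays, their deviations mirror each other, so the other replicate number adds no observation. Same-numbered arrays of duct cells, hepatocytes and whole liver also shared a slide and scan day. Replicate number and array batch therefore cannot be told apart there. Lgr5-sorted cells lay on the same slides, with 0.054 against whole liver. EM organoids and adult liver shared a scan day for replicate 1 only. With the replicate number as a block, 6 members were called for EM organoids against adult liver and 3 against duct cells, Bmp6 being added in each (adjusted p = 0.0327 and 0.0341). No other member's call changed under the block.

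The limits are the 1 to 3 arrays a group, dim arrays of Lgr5-sorted cells and pancreas, and tissues hybridised on separate slides and days.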
